A study of Homo sapiens with 22 samples.

Results

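The immediate early genes read here are FOS, FOSB, JUN, JUNB, EGR1, EGR2, EGR3, ARC, NR4A1 and IER2, 10 of the 63677 genes in each table. They were listed by symbol and chosen in part because they were higher in KELLY cells given a SOX9 siRNA, so that contrast is described and not tested. RNA was sequenced from SH-SY5Y and KELLY, established human neuroblastoma cell lines. The study lowered CASC15, which gives rise to long non-coding transcripts, or SOX9, a transcription factor gene, and compared transcriptomes. Values are RPKM, read counts scaled to gene length and library total, which allows levels of different genes to be set side by side.

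All SH-SY5Y cells carried a lentiviral shRNA selected with puromycin. The sh003 libraries carried an shRNA labelled as against the CASC15-003 transcript, the sh004 libraries one against CASC15-004, and the control libraries a scrambled sequence. Each transcript had an sh1 and an sh2. Day 7 libraries, after 7 days of retinoic acid at a labelled 10 mM, numbered 3 with sh003, 2 with sh004 and 2 with control. Day 0 libraries, in 10% serum, numbered 3 with sh003, 2 with sh004 and 3 with control. Spheres, grown in sphere-forming medium, numbered 2 with sh003, 2 with sh004 and 1 with control. KELLY cells gave 1 library with a SOX9 siRNA and 1 with a control siRNA. All 22 libraries are labelled as 48 hours after transfection, those of SH-SY5Y at day 0, at day 7 and in spheres included. The labels do not say whether libraries came from separate cultures, so the spread behind each p-value may be technical. In bulk RNA, a change in the share of cells that hold a transcript and a change in its amount per cell cannot be told apart.

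Immediate early genes are transcribed within minutes of a stimulus such as serum, growth factors or depolarization, from factors already present in the cell. ERK signalling acts through ELK1 and SRF, which binds the CArG box of serum response elements, and cAMP and calcium act through CREB. The mRNAs are short-lived, and RNA-binding proteins such as ZFP36 and phosphatases of the DUSP family end the response. Serum and medium changes are textbook triggers. The labels conflict on serum here, since a treatment field gives 1% for day 7 and the growth field gives 10%. No untreated day 7 library was analysed here, so retinoic acid, serum, medium and time in culture cannot be told apart.

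The 11 promoter windows found for 8 of the genes in RefSeq (GRCh38.p14, 250 bases before each start) were searched on both strands for the CArG box and for TGACGT, the core of the CREB site. ARC and EGR3 were not matched. The 4 windows with a match of either are shown, because these motifs mark the ERK and CREB arms of the response. Capitals mark CArG boxes and TGACGT, which reads ACGTCA on the other strand. The windows are chr5:138465229-138465478 (plus strand, EGR1), chr10:62816367-62816616 (minus strand, EGR2), chr14:75278578-75278827 (plus strand, FOS) and chr19:45467746-45467995 (plus strand, FOSB).
EGR1: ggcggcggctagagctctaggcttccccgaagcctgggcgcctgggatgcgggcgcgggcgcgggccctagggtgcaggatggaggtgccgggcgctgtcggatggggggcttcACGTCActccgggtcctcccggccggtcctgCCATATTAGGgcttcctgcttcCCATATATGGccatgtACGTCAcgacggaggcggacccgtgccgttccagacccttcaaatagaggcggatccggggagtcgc
EGR2: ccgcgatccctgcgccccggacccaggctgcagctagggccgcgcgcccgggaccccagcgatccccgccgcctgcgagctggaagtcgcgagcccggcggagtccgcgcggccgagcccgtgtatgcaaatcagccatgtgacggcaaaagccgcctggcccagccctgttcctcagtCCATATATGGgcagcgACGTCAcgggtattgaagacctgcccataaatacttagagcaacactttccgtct
FOS: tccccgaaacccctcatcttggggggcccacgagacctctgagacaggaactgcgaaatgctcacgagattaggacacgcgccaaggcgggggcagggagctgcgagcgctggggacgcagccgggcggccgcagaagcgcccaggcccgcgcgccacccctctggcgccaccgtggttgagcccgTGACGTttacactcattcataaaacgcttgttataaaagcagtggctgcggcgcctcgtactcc
FOSB: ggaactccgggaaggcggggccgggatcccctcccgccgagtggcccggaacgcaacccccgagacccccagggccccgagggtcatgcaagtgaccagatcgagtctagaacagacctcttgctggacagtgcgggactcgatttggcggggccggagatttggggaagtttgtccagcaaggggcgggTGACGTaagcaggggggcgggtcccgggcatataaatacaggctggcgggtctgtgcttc
The EGR1 window held CArG boxes that began 105 and 83 bases before the start and TGACGT matches at 136 and 67. In the EGR2 window the CArG box began at 71 and TGACGT at 55. The FOS window held TGACGT at 64 and the FOSB window at 60, with no CArG box within these 250 bases of either. Sequence further upstream was not searched, so a CArG box beyond the window would be missed. A CArG box lay in 2 of the 11 windows, against 1.16% of 34943 promoter windows of this length, and TGACGT lay in 4 of 11, against 7.09%. The full TGACGTCA lay in none, against 1.63%. TGACTCA or TGAGTCA, the AP-1 site, also lay in none, against 4.22%, and GCGNGGGCG, the site of the EGR proteins, in 1, against 8.39%. These are matches of letters and not measured binding.

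Libraries held 11.9 to 62.1 M assigned reads (M, mega). PHOX2A, a defining factor of sympathetic neuroblasts, lay at 113.3 RPKM or more in every library, and MYCN, which KELLY cells carry amplified, at 786.6 RPKM or more in KELLY and at most 8.09 elsewhere. CASC15 counted over all its transcripts was 1.57 to 2.65 RPKM in sh003 libraries at day 0 and 1.14 to 1.16 in sh004 libraries, against 1.31 to 2.38 in control. At day 7 it was 2.08 to 3.38 RPKM with sh003 and 1.31 to 1.48 with sh004, against 3.26 to 3.33 in control. Spheres held 1.63 and 2.46 RPKM with sh003 and 1.59 and 1.60 with sh004, against 2.15 in control. The sh003 libraries overlapped control in each condition, and single transcripts are not resolved. For a pair of sh003 libraries (day 7 sh1 of batch 2, day 0 sh2 of batch 1) the culture tag contradicts the title, and 1 sh004 sphere has no culture tag. CYP26A1, a retinoic acid target, was at 9.001 RPKM or more in all day 7 libraries and at most 0.271 in all day 0 libraries grouped by title. Calls and counts for sh003 monolayers are given with and without this pair.

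At day 0 in control cells the genes formed an order of levels per length. JUNB led at 40.6 ± 26.7 RPKM (SD, n = 3), followed by IER2 at 17.8 ± 3.34, JUN at 16.5 ± 7.26, EGR1 at 6.09 ± 5.36 and NR4A1 at 4.51 ± 2.52. ARC at 1.22 ± 0.854 and FOS at 1.14 ± 0.634 came next, and FOSB, EGR3 and EGR2 lay between 0.105 and 0.183. Neighbours in this order overlapped between libraries, apart from the steps from JUNB to IER2, from NR4A1 to ARC and from FOS to FOSB. FOS transcripts were thus rare in growing SH-SY5Y cells while its partners JUN and JUNB were not. Across the 15 monolayer libraries FOSB never passed 0.312 RPKM, and FOSB and EGR2 were not kept for the fit, which needed 1 RPKM in at least 2 libraries. EGR3 was kept only through its level in sh003 libraries at day 0.

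In KELLY cells 9 of the 10 genes were more than 2-fold higher with the SOX9 siRNA by read ratio, and JUN was not. On the scale of log2(RPKM + 0.5), which shrinks ratios of low genes, it was 8 of the 9 genes at 1 RPKM or more in either library, with a median log2 ratio of 2.96. Of all 14340 such genes 2.50% were past 2-fold higher, with a median of 0.05, but this contrast chose the genes and nothing is read from the share. SOX9 itself was at 0.974 RPKM with its siRNA and at 5.61 with the control siRNA (92 and 562 reads). FOS, whose protein pairs with JUN to form AP-1, was at 98.5 RPKM with the SOX9 siRNA and at 0.291 with the control siRNA, a read ratio of 338.5 (95% exact interval 227.3 to 528.7, counting error only). That was the largest log2 ratio of the 14340 genes. FOSB, its close paralog, was at 10.2 RPKM with the SOX9 siRNA and 0.0707 with the control siRNA. JUNB, another AP-1 subunit, was at 87.1 RPKM with the SOX9 siRNA and 22.3 with the control siRNA. JUN stood at 36.0 RPKM with the SOX9 siRNA and at 31.8 with the control siRNA, a ratio of 1.134 (1.076 to 1.196). The AP-1 subunits thus parted, with FOS and FOSB near absence in the control siRNA library and JUN abundant in both.

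The EGR genes encode zinc finger factors. EGR1 was at 90.7 RPKM with the SOX9 siRNA and at 1.44 with the control siRNA, a ratio of 63.02 (52.42 to 76.45). EGR3 had 416 reads with the SOX9 siRNA and 3 with the control siRNA, a ratio of 147.1 (50.0 to 716.4). EGR2 had 86 reads with the SOX9 siRNA and 1 with the control siRNA, a ratio of 91.26 (15.95 to 3646). EGR2 stayed under 1 RPKM in both libraries and so entered no count of kept genes. ARC, which encodes a synaptic capsid-like protein, was at 64.2 RPKM with the SOX9 siRNA and at 6.84 with the control siRNA. NR4A1, an orphan nuclear receptor gene, was at 20.3 RPKM with the SOX9 siRNA and 2.23 with the control siRNA. IER2, which encodes a nuclear protein, was at 37.6 RPKM with the SOX9 siRNA and 12.6 with the control siRNA. FOS, EGR1 and JUNB reached like levels with the SOX9 siRNA, although their levels in the control siRNA library spread from 0.291 to 22.3 RPKM.

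**Figure D1:**
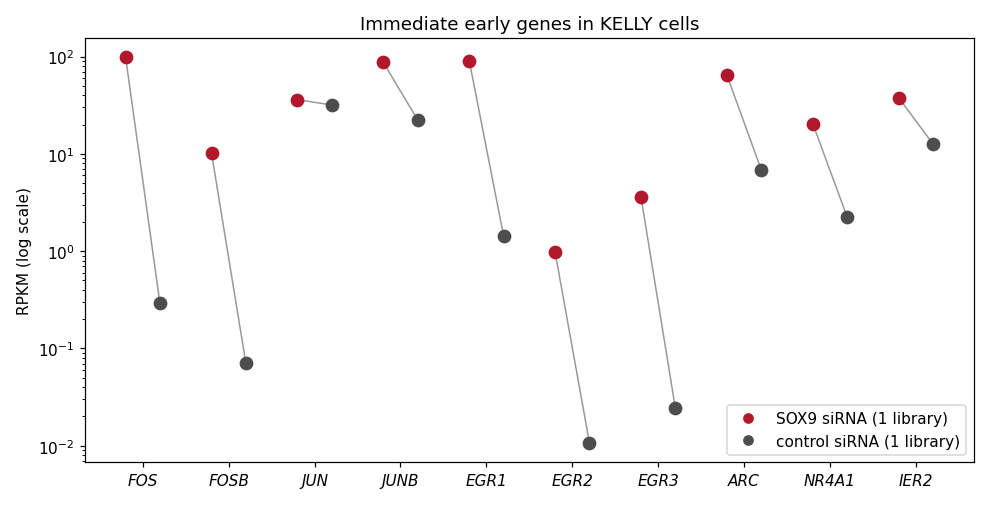
RPKM on a log scale of each gene in KELLY cells with the SOX9 siRNA (left point, red) and the control siRNA (right point, grey), 1 library each, joined by a line. FOS and EGR1 meet JUNB near 90 RPKM with the SOX9 siRNA, and JUN has nearly level points, 36.0 and 31.8 RPKM.

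Most kept genes of the wider primary response were within 2-fold in the same pair, with a median log2 ratio of 0.29. All 14340 kept genes had a median of 0.05, with 2.50% past 2-fold higher. Of 26 other primary response genes 18 were at 1 RPKM or more in either library and 2 were past 2-fold higher on the same log2 scale. These were NPAS4, a neuronal activity factor, at 7.00 RPKM with the SOX9 siRNA and 0.126 with the control siRNA, and BTG2, an antiproliferative gene, at 15.1 RPKM with the SOX9 siRNA and 5.82 with the control siRNA. EGR4, under 1 RPKM in both, had 41 reads with the SOX9 siRNA and 0 with the control siRNA. By read ratio NR4A2 was past 2-fold too, at 2.322 (1.885 to 2.872). So were NR4A3, CCN1 and CCN2, under 1 RPKM in both, with 28, 25 and 16 reads with the SOX9 siRNA and 8, 7 and 3 with the control siRNA. NR4A2 and KLF2 followed at log2 ratios of 0.97 and 0.83, and SGK1, CSRNP1, FOSL2 and JUND were lowest at -0.62, -0.59, -0.44 and -0.25.

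The genes that end the response were mostly within 2-fold too. DUSP1, which dephosphorylates MAP kinases, was the 1 of 13 kept decay and feedback genes past 2-fold, at 22.9 RPKM with the SOX9 siRNA and 9.80 with the control siRNA. ZFP36, which binds AU-rich mRNA for decay, was at 5.20 RPKM with the SOX9 siRNA and 2.91 with the control siRNA, and NAB1 and SPRY2 had log2 ratios of 0.30 and 0.26. SPRED2, DUSP6, DUSP2 and SPRY4 were lowest, between -0.13 and -0.02. None of 24 kept upstream factors and kinases was past 2-fold, from MRTFA at -0.56, ELK3 at -0.38, RPS6KA5 at -0.34 and MAPK3 at -0.29 to ELK4 at 0.16, SRF at 0.23 and RPS6KA2 at 0.43.

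The lists for handling and cell identity gave the following values in the same pair, and their part in the difference was not tested. The 10 heat shock and handling genes summed to 1382 RPKM with the SOX9 siRNA and 1125 with the control siRNA, with none past 2-fold. HSPD1, HSPE1, HSPA8 and HSPH1 had log2 ratios of 0.49, 0.44, 0.38 and 0.28, while HSPA1A was at -0.09 and BAG3 lowest at -0.76. The 15 neuroblast identity genes summed to 3474 RPKM with the SOX9 siRNA and 3631 with the control siRNA. TH, which encodes the rate-limiting enzyme of catecholamine synthesis, was the member past 2-fold, at 64.0 RPKM with the SOX9 siRNA and 22.0 with the control siRNA. MYCN and DBH had log2 ratios of 0.42 and 0.40, and CHGB, NPY, CHGA and GATA2 were lowest, from -0.71 to -0.23. The 14 substrate-adherent mesenchymal genes summed to 464.7 RPKM with the SOX9 siRNA and 687.1 with the control siRNA, with 2 of 8 kept genes past 2-fold lower. These were SPARC, at 3.75 RPKM with the SOX9 siRNA and 14.9 with the control siRNA, and COL3A1, at 0.226 RPKM with the SOX9 siRNA and 1.36 with the control siRNA. COL5A1 and S100A6 followed at log2 ratios of -0.73 and -0.68, and DCN and LUM were highest at 0.47 and 0.26. PRRX1 was at or near 0 in both libraries.

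**Figure D2:**
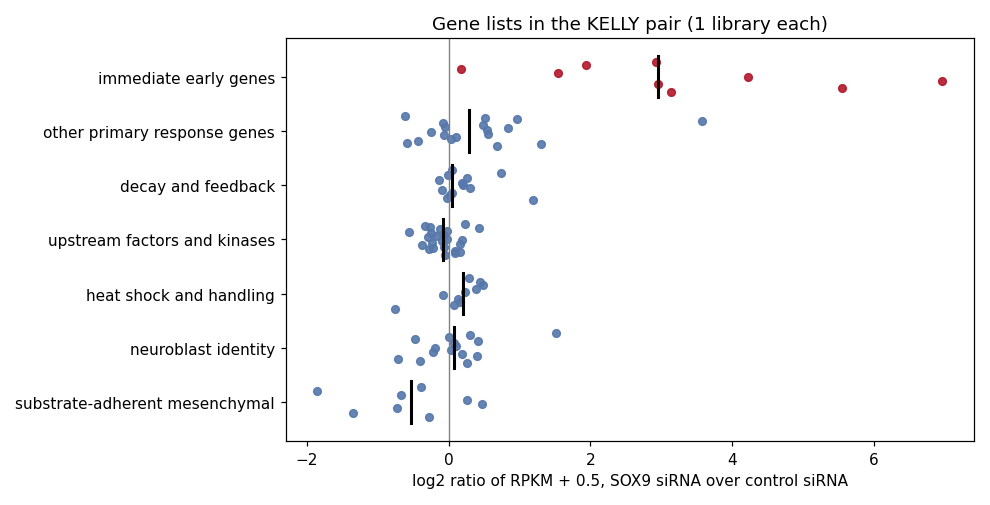
Log2 ratio of RPKM + 0.5, SOX9 siRNA over control siRNA, for the kept genes of 7 lists in KELLY cells, 1 point per gene, with the list median as a black bar. The immediate early genes, chosen in part on this contrast, run from JUN at 0.18 to FOS at 6.97 with a median of 2.96, and NPAS4 at 3.58 is the 1 gene of another list above 2.

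In SH-SY5Y at day 0 the immediate early genes were higher in libraries labelled sh003 than in control libraries of the same batch for 8 of the 10. The exceptions were FOSB and JUNB, each higher in 2 of 3 pairs. Of 19461 genes fitted, 13.4% were higher in all 3 pairs. Without the sh003 library of batch 1, whose culture tag contradicts its title, the same 8 were higher in both pairs left, against 20.7% of fitted genes. Of the 8, EGR2 was not fitted and EGR3 was kept only through sh003 libraries at day 0, so neither is set against these shares. EGR1 reached 7.50 (sh1, batch 3), 51.5 (sh2, batch 1) and 41.7 RPKM (sh2, batch 2) with sh003, against 0.866, 11.6 and 5.83 in the control libraries of batches 3, 1 and 2. The groups overlap, because the batch 3 library with sh003 lies below the batch 1 control. Within batches the differences were 2.55, 2.11 and 2.74 in batches 3, 1 and 2 on the log2 scale. EGR3 was at 0.664, 2.02 and 1.23 RPKM with sh003 and at 0.081, 0.26 and 0.155 in control libraries, in the same batch order, with no overlap. EGR2 was at 5.08, 0.582 and 0.516 RPKM with sh003 and at 0.213, 0.0684 and 0.0341 in control libraries. The sh1 library of batch 3 thus held the highest EGR2 of all monolayers and the lowest EGR1 and EGR3 of its group.

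**Figure D3:**
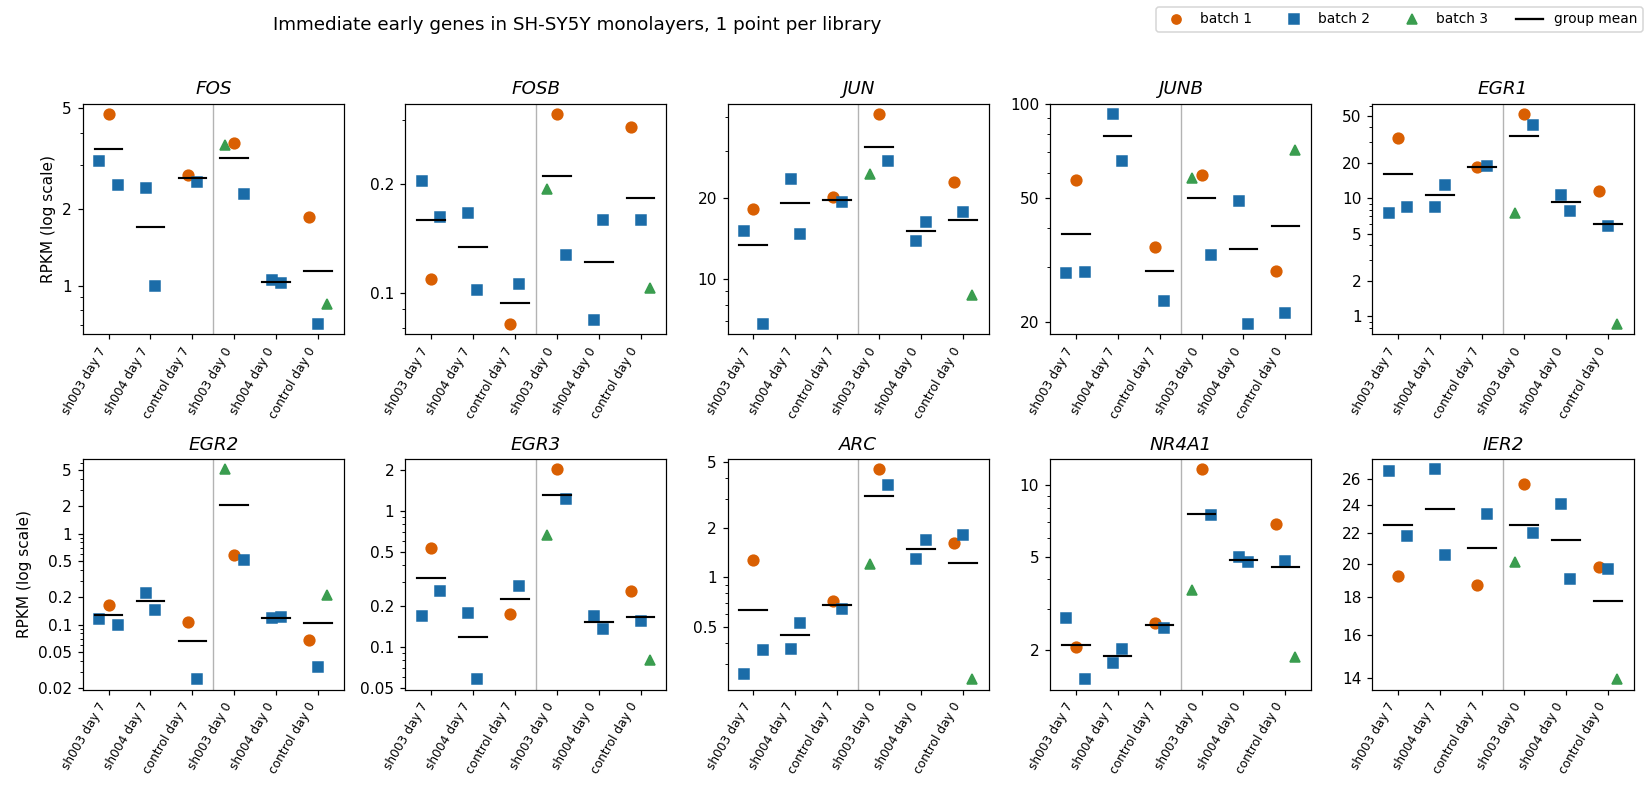
RPKM on a log scale of each gene in 15 SH-SY5Y monolayer libraries, day 7 groups left of day 0 groups, 1 point per library with batch by symbol and the group mean as a bar. EGR3 at day 0 separates sh003 (0.664 to 2.02) from control (0.081 to 0.26), and the batch 3 control is lowest for EGR1, ARC and NR4A1 among day 0 libraries and highest for JUNB.

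Among AP-1 genes at day 0, FOS was at 3.57, 3.64 and 2.30 RPKM with sh003 and at 0.851, 1.87 and 0.708 in control libraries. JUN was at 24.7, 41.2 and 27.5 RPKM with sh003 and at 8.70, 23.1 and 17.8 in control libraries, again by batches 3, 1 and 2. Neither gene overlapped between groups, while JUNB overlapped, at 49.98 ± 14.8 RPKM with sh003 and 40.6 ± 26.7 in control (SD, n = 3 each). ARC averaged 3.12 ± 1.71 RPKM with sh003 and 1.22 ± 0.854 in control, and NR4A1 averaged 7.59 ± 4.03 RPKM with sh003 and 4.51 ± 2.52 in control, both with overlap. IER2 was the flattest of those higher in every pair, at 22.6 ± 2.80 RPKM with sh003 and 17.8 ± 3.34 in control. In all, 5 of 10 genes did not overlap and were higher with sh003 (FOS, JUN, EGR2, EGR3 and IER2), and the same 5 without the contradicting batch 1 library. EGR2 was not fitted, and EGR3 was kept only through these sh003 libraries, so neither is set against a share of fitted genes. Of the 7 fitted genes other than EGR3 these were FOS, JUN and IER2, against 3.91% of fitted genes, and 6.13% without that library.

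EGR3 passed the filter only through the sh003 libraries at day 0, where it is high, so its log2 change of 1.38 (SE 0.20 with the block) is given as a value and not counted among calls. In limma without a batch term none of the other 7 fitted genes passed for sh003 against control at day 0, and 0.00514% of all genes did. At an unadjusted p under 0.05 there were 3, FOS, JUN and EGR1, and voom on recovered reads called 0. With batch as a block 1 rose, EGR1, against 0.200% of all genes, and 0.252% of all genes were called in either direction. EGR1 had a log2 change of 2.46 (SE 0.34, adjusted p = 0.0269), where without the block the adjusted p was 0.709. FOS (1.20, SE 0.26) and ARC (1.09, SE 0.24) had adjusted p = 0.108 and 0.110 with the block, and JUN (0.96) and NR4A1 (0.70) had 0.232 and 0.185. With any 1 of the 6 libraries left out of the blocked limma fit EGR1 did not pass, at adjusted p of 0.0562 to 0.198, while its log2 change stayed between 2.27 and 2.69. Without the pair of contradicting tags EGR1 had adjusted p = 0.192.

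The substrate-adherent mesenchymal list was also higher in sum with sh003 at day 0, with overlap between groups. All 11 fitted members lay above 0 in log2 change, but DCN entered the fit through sh003 libraries alone, so its sign is not counted. The median of the 11, DCN included, was 1.02, where all genes had -0.06. Its sum was 630.2 to 750.6 RPKM with sh003 and 238.8 to 689.0 in control. DCN, a matrix proteoglycan gene, was at 3.93, 6.78 and 8.71 RPKM with sh003 and at 0.332, 0.25 and 0.268 in control, by batches 3, 1 and 2, and passed the filter through sh003 libraries alone, so it is not counted as a call. No other gene of the list was called in either fit. Heat shock and handling genes summed to 548.6 to 1203 RPKM with sh003 and 698.3 to 1362 in control. SOX9 was at 28.9 ± 13.0 RPKM with sh003 and 12.4 ± 9.13 in control (SD, n = 3 each). The part of each in the result was not tested. CSRNP1, of the other primary response genes, was at 12.96, 10.7 and 4.95 RPKM with sh003 and at 4.80, 3.46 and 1.91 in control, and was the 1 of 21 called with the block (log2 change 1.34, adjusted p = 0.0263), but not without the pair of contradicting tags (adjusted p = 0.276). None of 14 decay and feedback genes or 25 upstream factors and kinases was called in either fit.

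With sh004 at day 0 none of the 8 fitted genes passed in either limma fit or in voom, where 0% of all genes did, and none had an unadjusted p under 0.05. EGR1 was at 10.7 (sh1) and 7.85 RPKM (sh2), and FOS at 1.05 and 1.02, all within the range of the control libraries. All sh004 monolayers were of batch 2, whose control library was at 5.83 RPKM for EGR1 and 0.708 for FOS. Against that 1 library FOS, EGR1 and EGR2 were higher with both shRNAs, JUN and ARC were lower, and the others were split. The sh003 and sh004 comparisons use the same controls and were not tested against each other at day 0. At day 7 none passed for sh003 against control in limma or voom, nor at an unadjusted p under 0.05, where 0% of all genes were called without the block and 0.00514% with it, and none without the pair of contradicting tags. EGR1 was then at 16.2 ± 14.2 RPKM with sh003 (n = 3) and 18.4 ± 0.310 in control (SD, n = 2). None passed for sh004 against control at day 7 in limma or voom, where again 0% of all genes did without the block and 0.226% with it. JUNB there was at 92.9 (sh1) and 65.5 RPKM (sh2) with sh004, against 34.9 and 23.3 in control libraries of batches 1 and 2, with no overlap. Its log2 change was 1.43 (SE 0.59, adjusted p = 0.584) and 1.80 (SE 0.41, adjusted p = 0.140) with the block, and it was the 1 gene at an unadjusted p under 0.05. Without overlap 4 of 10 genes were lower with sh004 at day 7 (FOS, EGR1, ARC and NR4A1), against 22.1% of fitted genes. JUNB was higher, against 10.8% of fitted genes, as was EGR2, which was not fitted.

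At day 7, against day 0, ARC and NR4A1 were lower in every pair of the same batch in all 3 backgrounds. The batch 1 pair with sh003 uses the contradicting day 0 library, and in the batch 2 pair the log2 differences were -2.26 for ARC and -1.99 for NR4A1. Of all genes 28.4% were lower in both pairs with sh003, 24.8% with sh004 and 27.5% in control. With sh003, NR4A1 was at 2.74, 2.06 and 1.51 RPKM at day 7 (sh1 batch 2, sh2 batch 1 and sh2 batch 2), against 3.62, 11.7 and 7.48 at day 0 (sh1 batch 3, sh2 batch 1 and sh2 batch 2), with no overlap. With sh004 it was at 1.77 and 2.02 RPKM at day 7 and at 4.98 and 4.73 at day 0, sh1 before sh2, again with no overlap. In control it was at 2.61 and 2.50 RPKM at day 7 and at 6.89, 4.78 and 1.87 at day 0, batches 1 to 3, where the batch 3 library makes the groups overlap. NR4A1 fell in all 3 backgrounds with the block in limma, with log2 changes of -1.93 with sh003 (SE 0.21, adjusted p = 0.00103), -1.16 with sh004 (SE 0.24, adjusted p = 0.0381) and -1.01 in control (SE 0.23, adjusted p = 0.0294). It was the 1 of 8 fitted genes called with sh004 and in control. With the block 14.3%, 2.11% and 7.68% of all genes were called in the same order, and 5.63%, 0.683% and 2.65% fell. Leaving out each library in turn kept this call in 6 of 6 fits with sh003, in 1 of 4 with sh004 (without sh2 at day 7) and in 1 of 5 in control (without batch 3), with adjusted p up to 0.178 with sh004 and 0.188 in control. None of the 3 calls was made without the block, at adjusted p of 0.0825 with sh003, 0.608 with sh004 and 0.690 in control.

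ARC was at 0.261, 1.28 and 0.361 RPKM at day 7 with sh003, in the same library order, against 1.21, 4.51 and 3.64 at day 0. With sh004 it was at 0.37 and 0.531 RPKM at day 7 and at 1.29 and 1.69 at day 0, and in control at 0.717 and 0.642 at day 7 and at 1.62, 1.80 and 0.242 at day 0. ARC fell with sh003 with the block in limma (log2 change -2.07, SE 0.26, adjusted p = 0.00193), a call kept without each library in turn. With sh004 its log2 change of -1.06 had adjusted p = 0.105, and in control that of -0.88 had 0.0807. ARC and NR4A1 were also the most alike pair of the 28 pairs of fitted members, with Pearson's r of 0.904 over 15 libraries and 0.927 over the 9 of batch 2, where shared batch, depth and day enter the value.

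With sh003, 4 of the 7 fitted genes other than EGR3 fell with the block and none rose, where 5.63% of all genes fell. Over all genes 1684 were higher and 1095 lower, and with median-ratio scaling 1217 were higher and 1805 lower, while the same 4 were called. Besides NR4A1 and ARC these were JUN (log2 change -1.45, SE 0.31, adjusted p = 0.0166) and EGR1 (-1.69, SE 0.37, adjusted p = 0.0169). EGR3, which entered the fit through the day 0 libraries compared here, had a log2 change of -1.23 (SE 0.21) and is not counted. It was at 0.17, 0.538 and 0.26 RPKM at day 7, against 0.664, 2.02 and 1.23 at day 0. JUN was at 15.1, 18.2 and 6.81 RPKM at day 7, against 24.7, 41.2 and 27.5 at day 0. Neither overlapped between days, and in total 4 of 10 genes were lower at day 7 without overlap (JUN, EGR2, EGR3 and NR4A1). The same 4 did not overlap without the pair of contradicting tags. Apart from EGR2, which was not fitted, and EGR3, these were JUN and NR4A1, against 8.70% of fitted genes, and 17.6% without that pair. EGR1 overlapped, at 7.43, 32.6 and 8.44 RPKM at day 7, against 7.50, 51.5 and 41.7 at day 0. All 4 called were among the 8 higher with sh003 in every day 0 pair, and both comparisons use the same sh003 day 0 libraries. Without the block 0 of 7 passed, 3 had an unadjusted p under 0.05 (ARC, JUN and NR4A1), voom called 0, and 2.35% of all genes were called. Without the pair of contradicting tags the blocked fit called 3, NR4A1, ARC and JUN, and leaving out 1 library gave 2 to 4 calls, the fewest without sh003 sh2 batch 2 at day 0.

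FOS and JUNB were not called at day 7 in any background in either fit. FOS was at 3.11, 4.74 and 2.49 RPKM at day 7 with sh003, against 3.57, 3.64 and 2.30 at day 0. In control FOS was at 2.73 and 2.56 RPKM at day 7 and at 1.87, 0.708 and 0.851 at day 0, with no overlap, a log2 change of 0.99 with the block (SE 0.30, adjusted p = 0.0726). EGR1 in control was at 18.2 and 18.6 RPKM at day 7, above all day 0 values of 11.6, 5.83 and 0.866, a log2 change of 1.13 with the block (SE 0.40, adjusted p = 0.107). In control, 2 of 10 genes were higher at day 7 without overlap, against 17.7% of fitted genes. JUNB with sh004 was at 92.9 and 65.5 RPKM at day 7 and at 48.8 and 19.8 at day 0, a log2 change of 1.31 with the block (SE 0.39, adjusted p = 0.131) that passed in limma in 1 of 4 fits with a library left out, that without sh004 sh1 at day 0 (adjusted p = 0.0372). Without the block none of the 8 was called in control, where 0.956% of all genes were, or with sh004, where 0.380% were, with 1 and 2 at an unadjusted p under 0.05.

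The day 7 change of EGR1 was thus below 0 with sh003 and above 0 in control. Tested as a difference of changes, sh003 minus control, it was -2.97 (SE 1.30, adjusted p = 1.00) without the block and -2.83 (SE 0.52, adjusted p = 0.542) with it in limma, and no member was called in either fit, where 0% of all genes were. Apart from EGR3, unadjusted p values were under 0.05 for 2 members (EGR1 and JUN) without the block and 4 with it, and voom called 0. None was called without the pair of contradicting tags. EGR1 passed in 1 of 11 blocked fits that left out 1 library, that without sh003 sh2 batch 1 at day 7 (adjusted p = 0.0466). For sh004 minus control none passed, where 0% of all genes did without the block and 0.0103% with it.

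**Figure D4:**
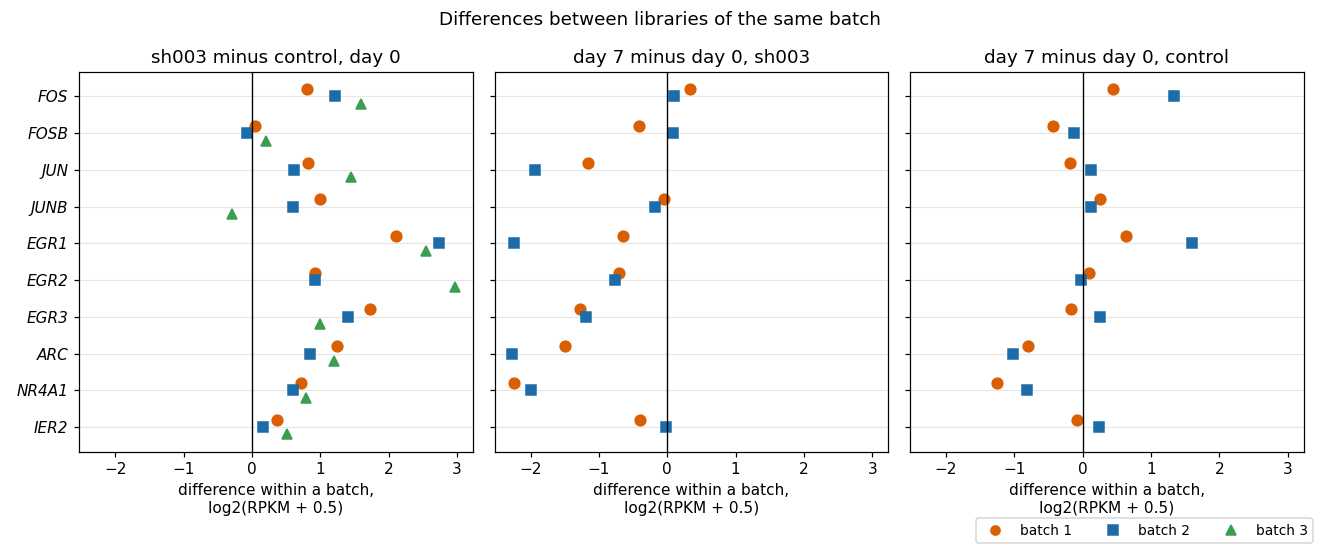
Differences in log2(RPKM + 0.5) between libraries of the same batch, for sh003 minus control at day 0 (left), day 7 minus day 0 with sh003 (middle) and day 7 minus day 0 in control (right), 1 point per pair with batch by symbol. EGR1 lies at 2.11 to 2.74 on the left, at -0.65 and -2.24 in the middle, and above 0 on the right, while ARC and NR4A1 lie below 0 in the middle and on the right.

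Some genes that restrain the response also differed between day 7 and day 0. DUSP2, a nuclear phosphatase of ERK, fell in limma without the block in all 3 backgrounds, with log2 changes of -3.48 with sh003 (SE 0.26, adjusted p = 8.05e-05), -3.52 with sh004 (SE 0.31, adjusted p = 0.000707) and -2.85 in control (SE 0.29, adjusted p = 0.00114). It averaged 0.493, 0.822 and 1.41 RPKM at day 7 in the same order, against 10.7, 14.5 and 13.0 at day 0. DUSP1 fell with sh003 to 6.12 RPKM at day 7, against 17.0 at day 0 (log2 change -1.37, adjusted p = 0.0213 in limma), and SPRED1, an inhibitor of RAS signalling, rose (0.83, adjusted p = 0.0352). These were 2 lower and 1 higher of 14 decay and feedback genes with sh003, against 1 lower each with sh004 and in control. Of all genes 2.35%, 0.380% and 0.956% were called in these fits. Without the pair of contradicting tags DUSP2 was still called with sh003 (adjusted p = 0.00495 in limma), while DUSP1 (0.120), SPRED1 (0.157), and of the genes named next BTG2 (0.0847), NPY (0.0527) and DDC (0.0861) were not. Of 21 other primary response genes BTG2 rose with sh003 to 50.3 RPKM, against 10.2 at day 0 (adjusted p = 0.0102 in limma), and MYC fell in control to 2.56 RPKM, against 14.1 (adjusted p = 0.0459). None of 25 upstream factors and kinases was called without the block. Of 14 neuroblast genes NPY and DDC were lower at day 7 with sh003, with list sums of 689.4 to 1135 RPKM at day 7 and 1717 to 2878 at day 0. No mesenchymal gene other than DCN, kept through sh003 libraries alone, was called there, and heat shock genes summed to 469.1 to 637.8 RPKM at day 7 and 548.6 to 1203 at day 0. Their part in the result was not tested.

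With the block 6 of the 14 decay and feedback genes were lower at day 7 with sh003 and 2 were higher, where 14.3% of all genes were called and 5.63% were lower. Without the pair of contradicting tags 2 were lower (DUSP1 and DUSP2) and 1 higher (SPRED1). DUSP2, SPRED1, DUSP1, NAB2, SPRY2 and DUSP5 had the smallest p values, and NAB2, a corepressor of the EGR proteins, was at 22.1 RPKM at day 7 and 39.8 at day 0 (log2 change -0.94, adjusted p = 0.00984 in limma). ZFP36 was higher, at 29.99 RPKM at day 7 and 8.76 at day 0 (log2 change 1.80, adjusted p = 0.0291). In control DUSP2 was lower and DUSP6 and SPRED1 higher with the block, and with sh004 DUSP2 and NAB2 were lower. Of 21 other primary response genes IER5, SGK1, KLF6 and MYC were lower with sh003 and BTG2 was higher. Without the pair of contradicting tags IER5 was lower and BTG2 higher. KLF2, which passed the filter only through sh003 libraries at day 0, had a log2 change of -0.78 and is not counted. In control IER5, MYC and SGK1 were lower and BTG2 and ATF3 higher, and with sh004 SGK1 and KLF6 were lower and BTG2 and ATF3 higher. Of all genes 7.68% were called in control and 2.11% with sh004.

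In spheres FOS, EGR1 and JUNB were lowest in the 1 control library. FOS was at 3.66 (sh1) and 9.13 RPKM (sh2) with sh003 and at 3.55 (sh1) and 0.729 (sh2) with sh004, against 0.167 in the control sphere. EGR1 was at 3.34 and 17.9 RPKM with sh003 and at 6.04 and 2.38 with sh004, against 1.13 in control. JUNB was at 100.2 and 21.8 RPKM with sh003 and at 125 and 73.3 with sh004, against 18.0 in control. The shRNAs of a transcript differed between themselves, as JUNB did with sh003. Without overlap 7 of 10 genes were higher with sh003 than in the control sphere, and 5 of 10 with sh004. FOSB, EGR2 and EGR3 were among the 7, and EGR2 and EGR3 among the 5, but none of them was fitted in spheres. Those fitted were FOS, JUNB, EGR1 and NR4A1 with sh003, against 40.5% of fitted genes, and FOS, JUNB and EGR1 with sh004, against 31.8%. ARC was at 0.145 and 2.40 RPKM with sh003 and 0.557 and 0.421 with sh004, against 2.14 in control. EGR2 and EGR3 had 0 reads in the control sphere, which allows up to 0.0209 and 0.0159 RPKM, and at most 0.830 and 0.163 RPKM in the others.

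**Figure D5:**
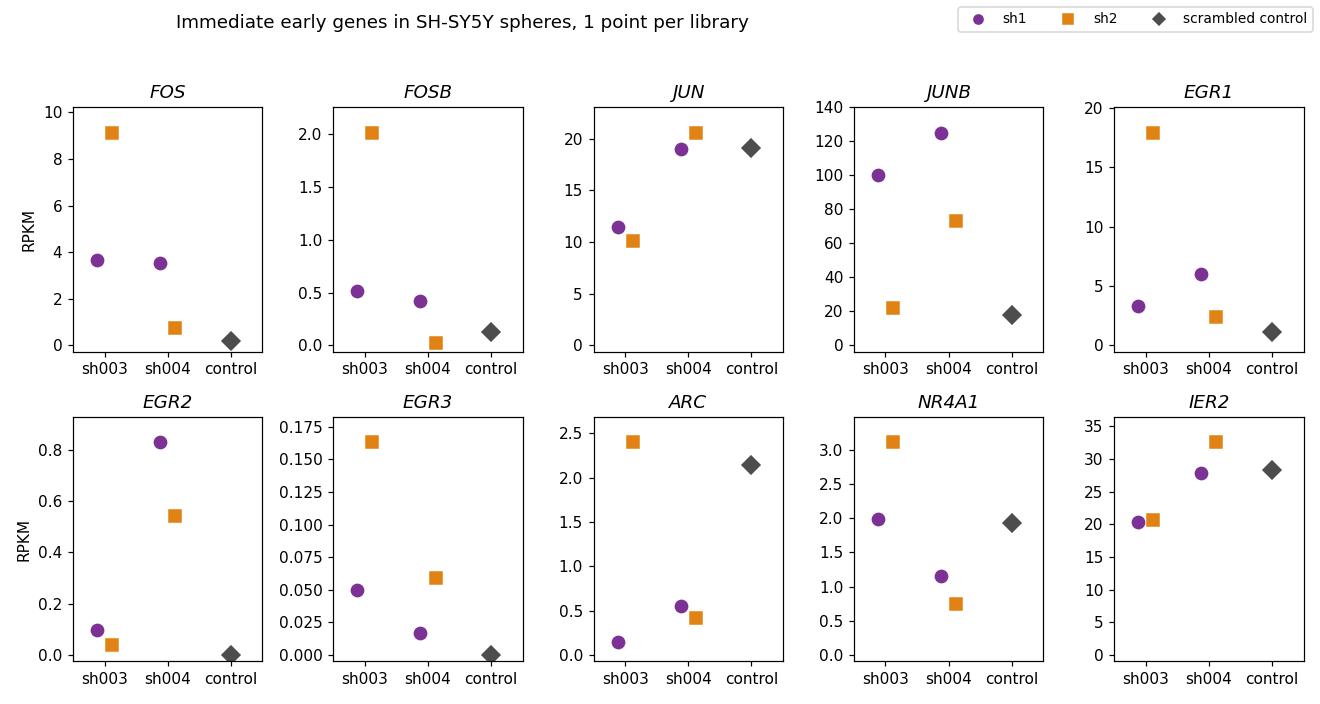
RPKM of each gene in 5 SH-SY5Y spheres, sh003 and sh004 left of control, 1 point per library with sh1 as circles, sh2 as squares and the control as diamonds. The control sphere is lowest for FOS, JUNB and EGR1, JUN is lower with sh003 (11.5 and 10.1) than elsewhere, and the shRNAs of a transcript differ widely for FOS, ARC and JUNB.

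None of the 7 genes fitted in spheres passed against the control sphere in limma or voom, with sh003 (0% of all 14711 genes) or with sh004 (0.129%). The lone control was assumed to vary like the knockdown pairs. With sh003 the 3 at an unadjusted p under 0.05 were FOS (log2 change 3.25, SE 0.79, adjusted p = 0.183), EGR1 (2.36, SE 0.92, adjusted p = 0.246) and JUN (-0.80, SE 0.23, adjusted p = 0.203), and with sh004 it was JUNB (2.38, SE 0.83, adjusted p = 0.179). Between sh003 and sh004 spheres 2 of 7 passed, where 39.9% of all genes did. JUN was at 11.5 and 10.1 RPKM with sh003 and at 19.0 and 20.6 with sh004, a log2 change of -0.85 (SE 0.19, adjusted p = 0.0178). NR4A1 was at 1.99 and 3.11 RPKM with sh003 and at 1.16 and 0.751 with sh004, a log2 change of 1.06 (SE 0.32, adjusted p = 0.0432). IER2, at 20.3 and 20.7 RPKM with sh003 and 27.9 and 32.6 with sh004, missed (-0.54, SE 0.19, adjusted p = 0.0584). With the RPKM as deposited, which rest on rotating library totals, neither call was made. JUN was called without sh003 sh1 and not without any other of the 4 spheres, and NR4A1 in no such fit. Without sh003 sh1 there were 3 calls, JUN, JUNB and ARC.

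Between the same spheres, where 39.9% of all genes were called, the other lists gave the following counts, and their part was not tested. Of 13 decay and feedback genes 5 were higher with sh003 and none lower, led by SPRED2 at 21.8 RPKM with sh003 and 4.61 with sh004 (log2 change 2.15, adjusted p = 0.00867 in limma) and NAB1 at 20.9 with sh003 and 11.0 with sh004, with SPRED1, ZFP36 and DUSP6. Of 25 upstream factors and kinases 11 were higher and 3 lower, among them MAPK14, MEF2A, MRTFB, MAP2K2 and RPS6KA3, of which MAP2K2 was lower. Of 17 other primary response genes 5 were higher and 2 lower with sh003. MYC was at 33.4 RPKM with sh003 and 3.21 with sh004, IER3 at 8.29 with sh003 and 168.1 with sh004, and JUND, an AP-1 subunit made largely without a stimulus, at 57.0 with sh003 and 169.5 with sh004. HOMER1, KLF10, KLF6 and CSRNP1 were higher. Heat shock genes called were HSPD1, higher, and HSPA1A and HSPE1, lower, of 10. Of 15 neuroblast genes those higher were DBH, CHGB, GATA2 and GATA3, and CD44 and COL3A1 were lower of 9 mesenchymal genes.

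The 8 genes whose level over the 15 monolayers was most like the mean of the 8 fitted early genes were SPATA2L (Pearson's r of 0.859, and 0.719 over the 9 libraries of batch 2), CD151 (0.800 and 0.622), DLGAP4 (0.782 and 0.753), PER1 (0.778 and 0.630), TRNP1, KLC2, MARCHF11 and GUK1 (0.764 to 0.773, and 0.382 to 0.590). Batch, depth and day are shared by these points. In the KELLY pair none of the 8 was past 2-fold, from CD151 at a log2 ratio of -0.54 to SPATA2L at 0.38. Within the early genes JUNB had r from -0.237 to 0.173 with the other 7 fitted members over the 15 monolayers. In batch 2 its r ran from -0.384 with NR4A1 to 0.491 with IER2. Low values were not particular to JUNB, since FOS had r of 0.102 with ARC and -0.0127 with NR4A1 over the 15 libraries. EGR1 and EGR3 had r of 0.699, and 0.826 in batch 2.

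FOSB, JUNB, EGR3, NR4A1 and IER2 overlap a gene on the other strand in GENCODE release 29, ERCC1 and HOOK2 among them. Whether the counting used strand is not given in the sources used here, so reads of these partners may be included in their values.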

How the data were processed

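RNA-seq libraries of SH-SY5Y (15 monolayer, 5 sphere) and KELLY (2) were read as RPKM values deposited by the authors. TopHat, Subread, featureCounts and build hg19 are named in the submitters' processing notes; versions, order and strand setting are not given in the sources used here. Libraries were grouped by title. Multiplied by gene length and library total, 100.0% of the RPKM gave whole reads within 0.01. The deposited sphere RPKM rested on 10 totals that rotate from gene to gene (25.6 to 62.1 M reads), 5 of them equal to a sphere library's own, and were recomputed with each library's own total; depth was 11.9 to 62.1 M reads. Log2 values of RPKM + 0.5, as deposited for monolayers and recomputed for spheres, were fitted with limma 3.58.1 (R 4.3.3, trend, no batch term) over 19461 monolayer or 14711 sphere genes at 1 RPKM or more in 2 libraries, with Benjamini-Hochberg adjustment over all genes and a threshold of 0.05. The fit was tested on simulated data. The KELLY pair, 1 library each, was given no test.

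Replicates may be technical. The titles name a batch shared across groups, so batch was used as a replicate block beside each result it changed. Deviations from the group mean correlated at 0.716 to 0.942 between same-batch control and sh003 libraries (16 pairs). Between other batches they correlated at -0.92 to 0.744 (29 pairs). In groups of 2 or 3 libraries such deviations are tied to one another, so negative values come in part from the arithmetic. Batches 2 and 3 gave 0.536 to 0.744, which meets the same-batch range, so the check sets apart batch 1 only. Other alternatives were pseudocounts of 0.1 and 1, no filter, median-ratio scaling, voom on recovered reads, each library left out, and the deposited sphere RPKM; those combining the block with another choice were added after seeing the data. The members and lists were chosen with earlier results of these data known. Named are all members; of other lists, the called genes (at most the 6 with the smallest p) and the 4 largest KELLY ratios in each direction; and the 8 genes most correlated with the members' mean at a mean RPKM of 2 or more. A gene beyond these that is named was chosen after its values were seen. Some genes that this rule would name are not reported here. Symbols matched 52181 of 63677 identifiers. Promoters and their build are those of RefSeq GRCh38.p14, not of the files' build.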

Additional observations from a re-analysis of the deposited data

How the results depend on the processing

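No change given for a member reversed under any alternative run. Between the fits without and with the replicate block 10 of 72 member changes differed in sign, none of them called in either fit with log2 changes of at most 0.488 in size. Without the batch block, no call on a member was made in any monolayer comparison under the other pseudocounts, no filter, median-ratio scaling or voom, and leaving out 1 library gave 0 to 1 calls for day 7 in sh003 and 0 in the others. With the replicate block the counts were 2 for sh003 at day 0, 5 for day 7 in sh003, 1 in sh004 and 1 in control, and the same counts came with median-ratio scaling, with a pseudocount of 0.1 and with voom. Counts for sh003 include EGR3, kept only through sh003 libraries at day 0; apart from it they were 1 and 4. Without the pair of contradicting tags the blocked counts were 0, 3, 1 and 1 in that order. Leaving out 1 library with the block gave 0 to 1, 2 to 5, 0 to 1 and 0 to 1 calls, and 0 to 1 for the sh003 interaction. Apart from EGR3, leaving out 1 library with the block gave no call for sh003 at day 0 and 2 to 4 for day 7 in sh003. The block changed no other member's call. Between sh003 and sh004 spheres the count was 2, 0 to 3 with 1 library left out and 0 with deposited RPKM; NR4A1 was also lost without the filter (adjusted p = 0.126) and IER2 passed with median-ratio scaling (adjusted p = 0.0469). The cause was not tested. Median-ratio scaling also moved the split of all genes called without the block at day 7 to 235 higher and 261 lower with sh003, against 305 and 153 with library totals, and to 89 and 65 in control, against 137 and 49, and with the block in control to 666 and 1084, against 979 and 515. It moved the median log2 change of all genes for day 7 in control to 0.03, against 0.15 with library totals. In KELLY, pseudocounts of 0.1 and 1 put FOS at log2 ratios of 7.98 and 6.27 and EGR1 at 5.88 and 5.23. Depth limits EGR2 and EGR3, with 0 reads in the control sphere and 1 and 3 with the control siRNA.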
